A study of Macaca mulatta with 2 samples.

Results

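CCK, TAC1, CRHBP, SCG5, PCSK1N, CBLN2 and BCHE are 7 genes for secreted peptides and for proteins that process, bind or accompany them. They are 7 of the 24037 features that both count matrices list, of which 16443 have a gene symbol, and each symbol belongs to 1 feature. The genes were chosen from results on these same 2 libraries, so where they stand high and which library is higher is a description here and not a test. The cells came from the trabecular meshwork of rhesus macaques, the filter of cells and matrix beside the iris root through which aqueous humour drains. There was 1 library whose genotype label is glaucoma, from monkeys that the series calls a spontaneous model of primary open-angle glaucoma, and 1 whose label is normal, from healthy controls. The labels give neither the number of animals or eyes in a library nor their age, sex, pressure or drugs, and the protocol of both is the same. With 1 library a group, the diagnosis cannot be told apart from animal, dissection or day of work, and no test between groups was possible. All intervals in brackets are 95% intervals that cover counting error only.

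Neuropeptides are made as longer precursors, packed into dense secretory granules and cut there by prohormone convertases before release. SCG5 and PCSK1N encode small granule proteins that bind those convertases, and CRHBP encodes a secreted protein that binds a stress peptide. Sensory nerve fibres that contain substance P, a product of TAC1, are known in the anterior eye, and the outflow tissue also receives autonomic fibres.

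The glaucoma library held 10624 barcodes and the normal library 7028. After filters on genes, mitochondrial RNA and doublets, 8337 and 5385 cells were kept, with 30011671 and 21696437 unique molecular identifiers (UMIs, each standing for 1 captured transcript). Their median depths were close, 2751 and 2702 UMIs. The libraries had 17 barcodes in common, of which 11 were kept in both. Clustering of all kept cells gave 26 clusters, of which 22 took a name from marker lists and 4 did not. Names end in "-like" because they rest on markers alone. Of the 7 genes, 5 were among the genes used to cluster (CCK, TAC1, CRHBP, PCSK1N and BCHE), so their place in clusters is partly built in. Levels are given as UMIs per 1000000 UMIs of the cells in question (CPM).

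The 7 genes were held by different cells. CCK marked meshwork-like cells, BCHE marked non-myelinating Schwann-like cells, and TAC1 and CRHBP were shared by a cluster of 29 cells of the glaucoma library. PCSK1N was spread over meshwork-like, Schwann-like, muscle-like, melanocyte-like and B or plasma-like cells. SCG5 and CBLN2 were sparse, in 155 and 202 of all kept cells. The map of levels by cluster shows these patterns for both libraries.

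**Figure D1:**
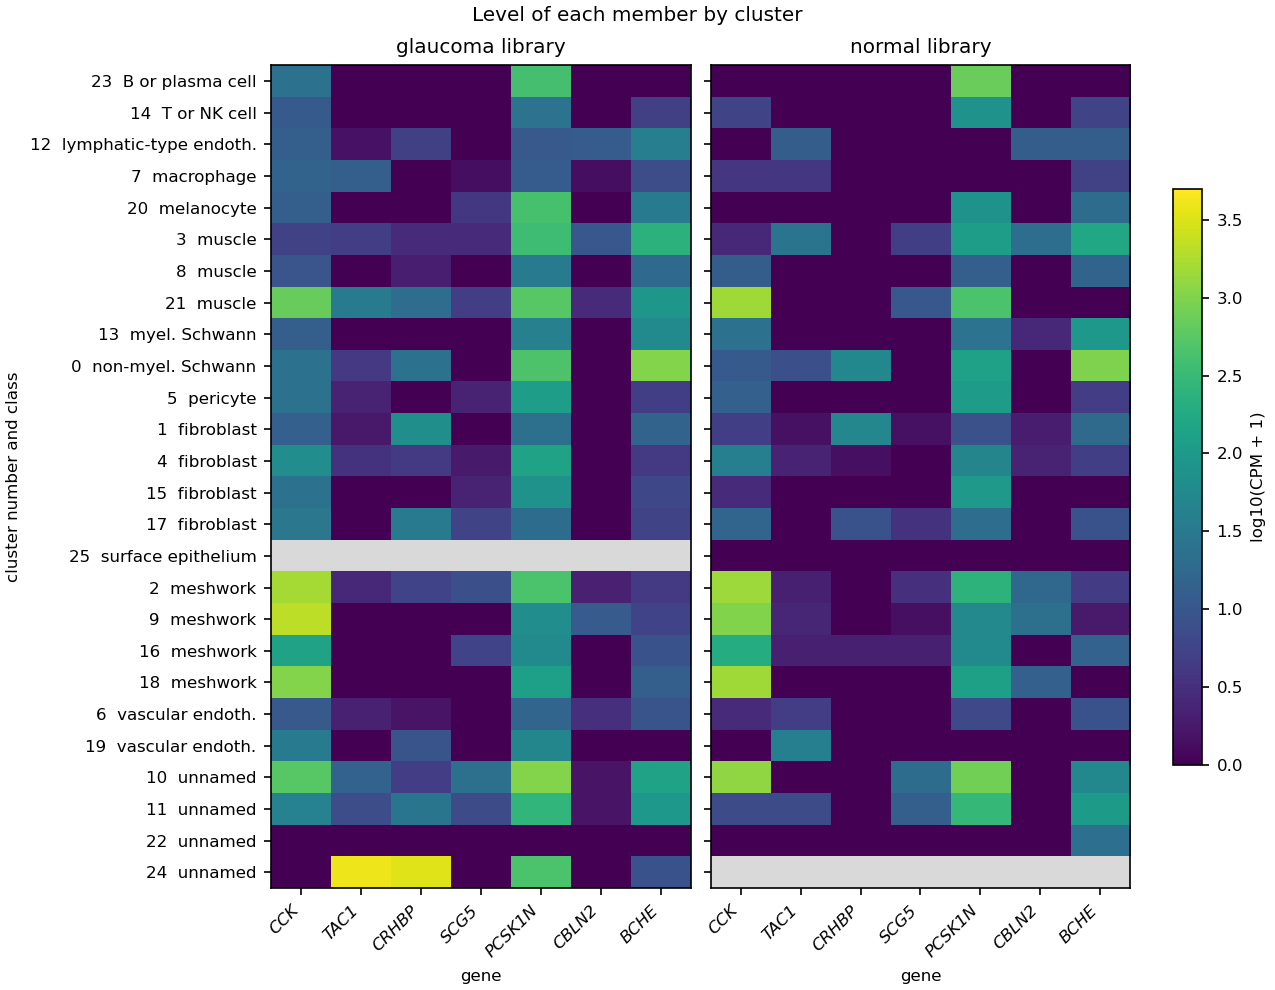
Level of each gene (columns) in each cluster (rows, with its number and class) as log10(CPM + 1), for the glaucoma library on the left and the normal library on the right. Grey rows have no cell in that library; CCK is bright in meshwork rows 2, 9 and 18 and in rows 10 and 21, BCHE is brightest in the non-myelinating Schwann row, and TAC1 and CRHBP in row 24, which holds 29 glaucoma cells and no normal cell.

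CCK encodes the precursor of cholecystokinin, a gut hormone and brain peptide. In the kept cells it had 15311 UMIs in the glaucoma library, in 17.0% of cells, and 6911 in the normal library, in 10.9%. Meshwork-like cells held 82.6% and 92.5% of these UMIs. Their CCK level was 1553 CPM [1526, 1580] in the glaucoma library over 1315 cells and 962 CPM [939, 986] in the normal library over 870 cells. The 4 clusters of the class counted between 5 and 10 of 14 meshwork markers, myocilin (MYOC), CHI3L1 and ANGPTL7 in each. Cluster 2 counted 7 meshwork and also 7 stromal fibroblast markers, and took the meshwork name with CHI3L1 and ANGPTL7 among its leading genes.

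The meshwork-like class was made of 4 clusters, and CCK differed among them more than between the libraries. Cluster 2, led by CCK, CYTL1 and CXCL14, had 1590 CPM in its 979 glaucoma cells and 1428 CPM in its 141 normal cells. Cluster 9, led by PLA2G2A, CYTL1 and CHI3L1, had 2125 CPM in 163 glaucoma cells and 992 CPM in 511 normal cells. The libraries were close in the first of these and apart in the second. Cluster 18, a shallower group with the same leading gene as cluster 9, had 1027 CPM in 39 glaucoma cells and 1479 CPM in 122 normal cells. Cluster 16, led by GPHA2 and CHI3L1, had the lowest levels, 135 CPM in 134 glaucoma cells and 194 CPM in 96 normal cells. The glaucoma library was therefore higher in clusters 2 and 9 and lower in clusters 16 and 18. As log2 ratios of glaucoma over normal these differences were 0.16 [0.07, 0.24] in cluster 2, 1.10 [1.03, 1.17] in cluster 9, -0.53 [-0.91, -0.15] in cluster 16 and -0.53 [-0.89, -0.18] in cluster 18.

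Within a cluster, CCK was held unevenly. In cluster 2, 30.1% of glaucoma cells and 35.5% of normal cells had no CCK UMI, while 35.4% and 21.3% had 10 or more, and the highest cells had 121 and 167. Cluster 9 had a median of 12 CCK UMIs per glaucoma cell and 2 per normal cell, and its highest cells had 187 and 117. Cells without CCK thus sat beside cells with over 100 UMIs in the same cluster and library. The top 10% of cluster 2 cells held 43.9% of the CCK UMIs in glaucoma cells and 61.9% in normal cells.

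**Figure D2:**
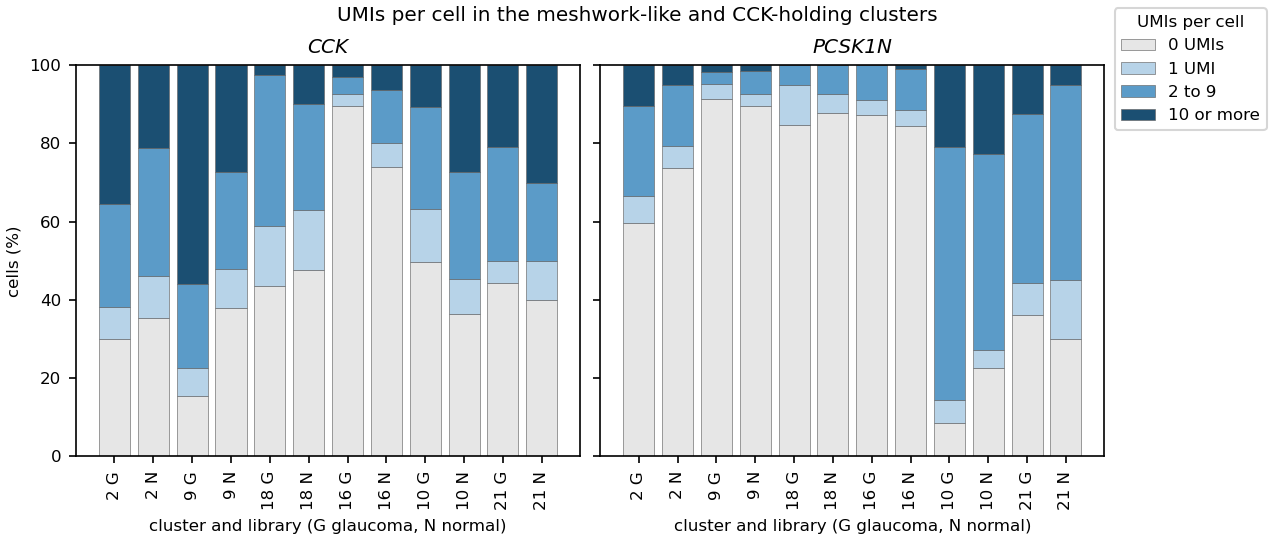
Share of cells (vertical axis, %) by the number of UMIs of CCK (left) and PCSK1N (right) per cell, for the 4 meshwork-like clusters (2, 9, 18, 16), the unnamed cluster 10 and the muscle-like cluster 21, in the glaucoma (G) and normal (N) library. Darkest segments are cells with 10 or more UMIs; for CCK they reach 55.8% in cluster 9 of the glaucoma library, and 8.63% of its cluster 10 cells have no PCSK1N UMI.

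Over the whole meshwork-like class, CCK had a log2 ratio of 0.69 [0.65, 0.73], under the 2-fold size that was set for calling a gene higher or lower. Cluster 2 made up 74.4% of the glaucoma cells of the class and 16.2% of its normal cells, while cluster 9 made up 12.4% and 58.7%. With each cluster given the same weight in both libraries the ratio was 0.46 [0.40, 0.52]. It was 0.10 [0.06, 0.15] with coarser clusters, at a clustering resolution of 0.5, and 0.26 [0.22, 0.30] with the 7 genes left out of the clustering genes. After each cell was thinned to 1000 UMIs, 47.7% [44.9, 50.4] of 1301 glaucoma cells and 36.4% [33.2, 39.8] of 851 normal cells had a CCK UMI, against 65.2% and 57.1% before thinning. Median depth in the class was 5599 and 7394 UMIs.

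The level of CCK in macrophage-like cells was taken as a low floor. Whether free RNA or another source gave it was not tested. A CCK UMI was seen in 4.74% of 633 glaucoma and 1.31% of 153 normal macrophage-like cells, at median depths of 4096 and 4317 UMIs. That was a level of 13.9 and 2.80 CPM, and T or NK-like cells had 10.2 and 4.68 CPM. In non-myelinating Schwann-like cells CCK stood at 23.5 and 10.3 CPM, and vascular endothelium-like cells had 11.3 and 1.64 CPM. Stromal fibroblast-like cells had 34.4 CPM in glaucoma and 19.6 CPM in normal cells, of which most lay in cluster 4, with 64.6 and 38.5 CPM. The log2 ratio in that class was 0.81 [0.42, 1.20], and it lay between 0.70 and 1.98 over the settings tried, past 2-fold in 8 of 10 that changed the cells or the weights, among them 1.98 [0.97, 3.10], from 48 UMIs, under a strict filter of at least 1000 genes and under 10% mitochondrial UMIs. The floor itself was higher in the glaucoma library, and its part in these low values was not tested.

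Beyond the meshwork-like class, CCK was held by the unnamed cluster 10 and the muscle-like cluster 21. Cluster 10, led by MGARP, CYTL1 and BMP3, counted 6 meshwork markers but was left unnamed because COL8A2, a corneal endothelium marker, was among its leading genes. It had 546 CPM in 591 glaucoma cells and 1233 CPM in 22 normal cells. Cluster 21 counted 8 muscle and 6 meshwork markers, and CCK was among its leading genes. Its CCK level was 690 CPM in 72 glaucoma cells and 1511 CPM in 20 normal cells, so normal was higher in both clusters. The remaining muscle-like clusters 3 and 8 had between 1.56 and 11.2 CPM in either library, near the macrophage-like level. Whether cluster 21 is a cell type with both programmes or droplets with cells of both kinds was not tested.

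For the muscle-like class as a whole, CCK was 124 CPM in glaucoma and 35.6 CPM in normal cells, a log2 ratio of 1.80 [1.54, 2.06]. Cluster 21 gave 373 of the 388 glaucoma UMIs and 166 of the 186 normal UMIs. It made up 10.3% of the muscle-like cells of the glaucoma library and 1.89% of those of the normal library. Without it the ratio was 0.56 [-0.51, 1.60], from 35 UMIs, and with each cluster weighted the same in both libraries it turned to -1.03 [-1.29, -0.77]. CCK was thus higher in the glaucoma library over the class and lower in it within cluster 21.

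TAC1 encodes the precursor of substance P and neurokinin A, peptides of sensory nerves. CRHBP encodes the binding protein of corticotropin-releasing hormone, which holds that hormone and its relatives away from their receptors. TAC1 had 666 UMIs in 96 glaucoma cells and 127 UMIs in 55 normal cells. CRHBP had 671 UMIs in 152 glaucoma cells and 153 UMIs in 85 normal cells. Similar shares of cells held each gene in the libraries, 1.15% and 1.02% for TAC1 and 1.82% and 1.58% for CRHBP, but the UMIs per cell differed.

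Most of the glaucoma UMIs lay in cluster 24, which had 29 cells, 0.348% of the kept glaucoma cells, and none from the normal library. TAC1 gave 528 UMIs there, between 2 and 75 per cell with a median of 15, or 3970 CPM [3638, 4323]. CRHBP gave 438 UMIs, between 0 and 49 per cell with a median of 13, or 3293 CPM [2992, 3617]. All 29 cells held TAC1 and 28 held CRHBP. TAC1 and CRHBP were the leading genes and were among the genes used to cluster, so their level there is partly built in.

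Beyond these genes the cells of cluster 24 counted markers of connective tissue, vessels and meshwork. They counted 8 of 12 stromal fibroblast markers, among them DCN, LUM, PDGFRA and COL1A1, 4 of 12 vascular endothelium markers and 3 of 8 pericyte markers. They also counted 3 of 14 meshwork markers, MYOC, ANGPTL7 and EDN3, while 6 of the 14 had no UMI. The meshwork markers summed to 29481 CPM, beside 21917 CPM for the stromal fibroblast markers. In meshwork-like cluster 2 the meshwork markers summed to 28676 CPM. The vascular endothelium markers of cluster 24 summed to 504 CPM, with 5 of the 12 at 0 UMIs, beside 9855 CPM in vascular endothelium-like cluster 6. Its pericyte markers summed to 1226 CPM, beside 9945 CPM in pericyte-like cluster 5. No neuron marker of 13 and no neuroendocrine marker of 7 counted, and 10 of the neuron markers and all 7 neuroendocrine markers were at 0 UMIs. Other leading genes were NDUFA4L2, PTGER2, a prostaglandin receptor, RBP4, a retinol carrier, and PTN, a growth factor. Median depth was 4291 UMIs and median mitochondrial share 3.36%. PCSK1N was also present, at 451 CPM [344, 581] in 22 of the 29 cells, while CCK, SCG5 and CBLN2 had no UMI, which allows up to 22.6 CPM. The part of droplets with more than 1 cell was not tested beyond the doublet filter.

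Cells with both genes were found in 1 library. Of the kept glaucoma cells 31 had TAC1 and CRHBP together, 28 of them in cluster 24. None of the 5385 kept normal cells did, which allows a share of cells with UMIs of both of up to 0.0557% and sets no limit on cells that express them unseen, and none of the 7028 normal barcodes before filtering. The cluster appeared again with doublets kept and at resolution 0.5, with the same 29 cells. Under the strict filter 28 of its cells formed a cluster of 32 with 1 normal cell. Without the 7 genes among the clustering genes, 25 of its 29 cells fell into an unnamed cluster of 725 cells, and with every deposited barcode 25 fell into a cluster of 642.

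**Figure D3:**
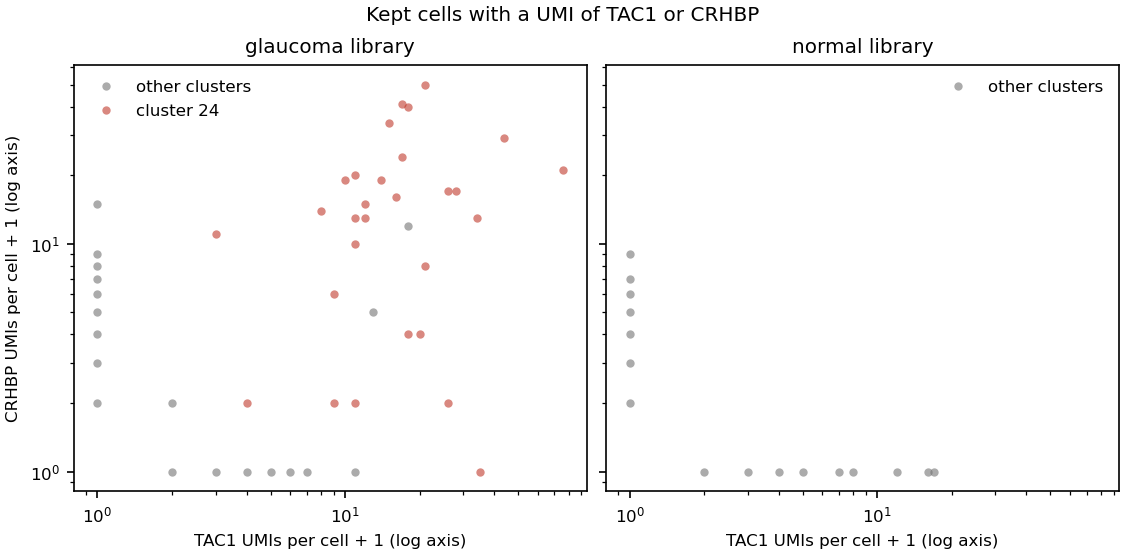
UMIs of TAC1 (horizontal) and CRHBP (vertical) per cell, each plus 1 on a log axis, for kept cells with at least 1 UMI of either gene; points may stand for several cells. Red points are the 29 cells of cluster 24 in the glaucoma library, where 31 cells hold both genes; in the normal library all points lie on the axes.

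Outside cluster 24 the TAC1 and CRHBP patterns parted. TAC1 in the normal library was mainly in muscle-like cells, which held 78.0% of its UMIs. All 99 of these lay in cluster 3, a smooth muscle-like cluster led by MYH11 and CHRM3, in 32 of 634 cells. Cluster 3 had 25.7 CPM of TAC1 in the normal library and 3.66 CPM in the glaucoma library, where 5 of 264 cells held 6 UMIs, a log2 ratio of -2.81 [-4.29, -1.64]. The median mitochondrial share of cluster 3 was 16.9% in glaucoma and 11.3% in normal cells, so the strict filter left out most of its cells in both libraries, and the part of that share in the cluster's ratios was not tested. For the muscle-like class the levels were 19.0 and 7.65 CPM and the ratio -1.31 [-2.02, -0.66]. A single glaucoma barcode gave 17 of the 24 glaucoma UMIs, and without the top barcode of each library the ratio was -2.83 [-4.19, -1.73].

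Macrophage-like cells of the glaucoma library held 33 TAC1 UMIs in 20 cells, 12.4 CPM, with up to 6 in a cell. CRHBP had no UMI in the 633 macrophage-like cells of that library. The source of their TAC1 UMIs was not tested. Normal macrophage-like cells had 2.80 CPM of TAC1. Cluster 10 had 13.5 CPM of TAC1 in the glaucoma library, in 17 of 591 cells. Its 22 normal cells had none, which allows up to 19.6 CPM, so a difference was not detectable there. TAC1 was thus thinly spread over several kinds of glaucoma cells. In non-myelinating Schwann-like cells TAC1 stood at 3.06 CPM, from 3 UMIs, and 6.89 CPM, from 6 UMIs.

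CRHBP was otherwise a gene of stromal fibroblast-like cluster 1 and of non-myelinating Schwann-like cells. Cluster 1, led by PI16, CITED1 and C7, had 68.2 CPM in the glaucoma library, in 35 of 574 cells, and 50.3 CPM in the normal library, in 53 of 816 cells. The log2 ratio in the stromal fibroblast-like class was 0.49 [0.07, 0.90]. Non-myelinating Schwann-like cells had 23.5 CPM [14.9, 35.3] in 16 of 874 glaucoma cells and 51.7 CPM [37.7, 69.2] in 27 of 575 normal cells, with intervals that did not overlap. Glaucoma cells of the unnamed cluster 11, led by BMP3, MGARP and WIF1, had 26.0 CPM in 36 of 557 cells, and its 42 normal cells had none, which allows up to 18.2 CPM.

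CRH itself, the hormone that CRHBP binds, was found in the same non-myelinating Schwann-like class. Cells with UMIs of both CRH and CRHBP were not counted. In this class CRH had 1 UMI in the glaucoma library (1.02 CPM) and 68 UMIs in 36 of 575 normal cells (78.1 CPM [60.7, 99.0]), a log2 ratio of -6.26 [-11.58, -3.73]. All kept cells together had 75 CRH UMIs. Its receptor genes were almost silent: CRHR1 had 16 UMIs in all kept cells and CRHR2 had none. Receptors for the other peptides were as sparse, with 2 UMIs for the cholecystokinin receptor CCKBR, 11 for the substance P receptor TACR1 and 2 for TACR2. CCKAR and TACR3 were not analysed here.

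SCG5 encodes 7B2, a chaperone of the convertase PCSK2, and PCSK1N encodes proSAAS, whose products inhibit the convertase PCSK1. SCG5 had 146 UMIs in 129 glaucoma cells and 28 UMIs in 26 normal cells. Cluster 10 had 22.2 CPM [17.6, 27.7] in 67 of 591 glaucoma cells, which was 54.1% of the gene's glaucoma UMIs, and 19.6 CPM [4.04, 57.2] in 3 of 22 normal cells. The normal interval there contained the glaucoma value, and 591 glaucoma cells stood against 22 normal cells. Meshwork-like cluster 2 had 6.94 CPM in 37 of 979 glaucoma cells and 2.24 CPM, from 2 UMIs, in 141 normal cells. The log2 ratio there was 1.63 [-0.31, 4.72]. The meshwork-like class had 5.53 CPM from 45 UMIs in the glaucoma library and 0.752 CPM from 5 UMIs in the normal library. Cluster 2 made up 74.4% of the glaucoma cells of the class and 16.2% of its normal cells. No SCG5 UMI was seen in Schwann-like, vascular endothelium-like or T or NK-like cells of either library.

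PCSK1N had 9048 UMIs in 23.7% of glaucoma cells and 1730 UMIs in 10.0% of normal cells. Its highest named or unnamed cluster in both libraries was cluster 10, with 1023 CPM [990, 1056] in glaucoma cells and 815 CPM [679, 971] in normal cells. There 91.4% of glaucoma cells and 77.3% of normal cells held it, with medians of 5 and 4.5 UMIs per cell. Most cells of the cluster thus held PCSK1N in either library. Cluster 11 had 268 and 291 CPM. B or plasma-like cells, which secrete antibody, had 409 CPM in 11 of 20 glaucoma cells and 723 CPM in 8 of 10 normal cells. Melanocyte-like cells had 426 CPM in 90 glaucoma cells and 78.0 CPM, from 4 UMIs, in 16 normal cells.

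The level of PCSK1N in macrophage-like cells, again taken as a floor of untested source, was low against these values. Macrophage-like cells had 10.9 CPM in the glaucoma library and no UMI in the normal library, which allows up to 4.20 CPM. Vascular endothelium-like cells had 17.1 and 4.92 CPM. After thinning, a PCSK1N UMI was seen in 1.28% of glaucoma and 0% of normal macrophage-like cells.

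PCSK1N was higher in the glaucoma library in 4 of the 5 classes where it could be measured, which needs 100 UMIs over both libraries. In meshwork-like cells it stood at 347 CPM [335, 360] against 82.9 CPM [76.1, 90.1], a log2 ratio of 2.07 [1.93, 2.20]. The intervals of the levels did not overlap. In non-myelinating Schwann-like cells it was 467 CPM [425, 512] against 130 CPM [107, 156], a ratio of 1.85 [1.55, 2.16]. The muscle-like class had 286 against 96.2 CPM, a ratio of 1.57 [1.41, 1.73], and the stromal fibroblast-like class 73.2 against 34.9 CPM, a ratio of 1.07 [0.79, 1.35]. Pericyte-like cells had 112 and 110 CPM, a ratio of 0.04 [-0.41, 0.48]. The interval for pericyte-like cells excluded a 2-fold difference in either direction.

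The size in meshwork-like cells depended on the make-up of the class. PCSK1N was 445 against 242 CPM in cluster 2, a log2 ratio of 0.88 [0.68, 1.09]. It was 64.9 against 55.0 CPM in cluster 9, 56.9 against 58.0 CPM in cluster 16 and 121 against 124 CPM in cluster 18. Cluster 2, which holds most glaucoma cells, thus had the largest ratio of the 4. Clusters 16 and 18 had under 100 UMIs each, and the interval of cluster 18, [-1.23, 1.04] from 10 and 29 UMIs, allows more than 2-fold in either direction. With each cluster weighted the same in both libraries the ratio fell to 0.73 [0.56, 0.89], under 2-fold, and with every deposited barcode it was 0.53 [0.24, 0.82]. Muscle-like cells showed less of this: cluster 3 had 349 against 113 CPM, a ratio of 1.62 [1.44, 1.81], at the mitochondrial shares given above, and the strict filter brought the class to 0.85 [0.56, 1.14]. Of the stromal fibroblast-like clusters, cluster 4 had 134 against 47.6 CPM and cluster 15 had 76.1 against 96.7 CPM. The ratio of that class was 0.14 [-0.36, 0.64] under the strict filter and 0.63 [0.18, 1.08] with the 7 genes left out of the clustering genes.

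Non-myelinating Schwann-like cells were 1 cluster at resolution 1, so their ratio could not be split by cluster. The mix of cells within that cluster was not tested. Thinning to 1000 UMIs kept 397 of its 874 glaucoma cells and 417 of its 575 normal cells. Of these, 22.2% [18.2, 26.6] of the glaucoma cells and 8.39% [5.92, 11.5] of the normal cells had a PCSK1N UMI. Before thinning the shares were 27.2% and 11.0%, at median depths of 965 and 1313 UMIs. The deeper library thus had the lower share. Over all settings tried the ratio in this class lay between 1.49 and 2.05.

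**Figure D4:**
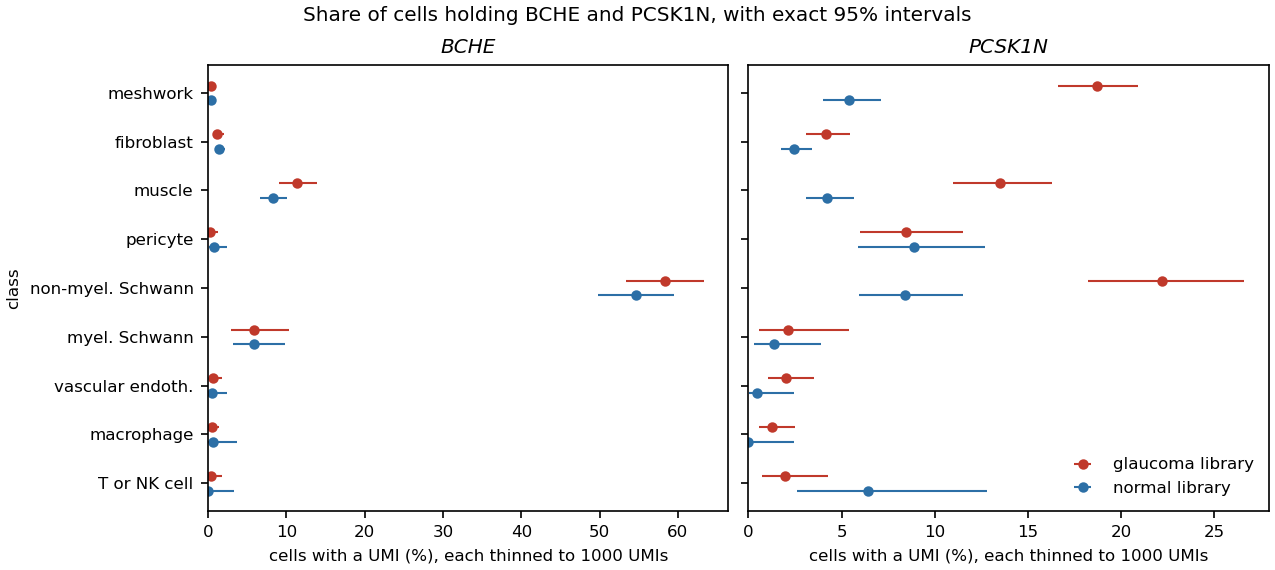
Share of cells with a UMI (horizontal axis, %, each cell thinned to 1000 UMIs) of BCHE (left) and PCSK1N (right) in 9 classes, glaucoma in red and normal in blue, with exact 95% binomial intervals. BCHE peaks at 58.4% and 54.7% in non-myelinating Schwann cells with overlapping intervals; PCSK1N intervals of the 2 libraries lie apart in meshwork (18.7% and 5.41%), muscle and non-myelinating Schwann cells.

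CBLN2 encodes cerebellin 2, a secreted protein that bridges nerve endings to receptors on the partner cell. It was the gene with fewer UMIs in the glaucoma library, 67 in 51 cells against 208 in 151 cells. Cluster 9 had 10.4 CPM in 11 of 163 glaucoma cells and 22.2 CPM in 72 of 511 normal cells, a log2 ratio of -1.09 [-2.01, -0.28]. Cluster 2 had 1.16 CPM in 7 of 979 glaucoma cells and 16.8 CPM in 11 of 141 normal cells. Normal was higher in both, with no overlap of the intervals in cluster 2, [0.465, 2.38] and [9.41, 27.7].

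Meshwork-like cells as a class had 2.58 CPM [1.60, 3.94] and 18.2 CPM [15.1, 21.8], a log2 ratio of -2.82 [-3.56, -2.14]. With each cluster weighted the same it was -1.97 [-2.74, -1.20], and with every deposited barcode -1.51 [-2.40, -0.72]. CBLN2 was also in muscle-like cluster 3, with 9.16 CPM in 10 of 264 glaucoma cells and 20.7 CPM in 59 of 634 normal cells. Lymphatic-type endothelium-like cells had 10.9 CPM in 550 glaucoma cells and 11.2 CPM, from 1 UMI, in 33 normal cells. Non-myelinating Schwann-like and pericyte-like cells had no CBLN2 UMI in either library.

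The related cerebellin CBLN4 went the other way in meshwork-like cells, with 43.1 and 18.8 CPM and a log2 ratio of 1.20 [0.90, 1.50]. Within cluster 2, where CBLN4 was highest, it had 55.2 and 77.3 CPM, a ratio of -0.49 [-0.86, -0.09], so its direction turned inside the cluster.

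BCHE encodes butyrylcholinesterase, an enzyme that splits acetylcholine and other choline esters and that glial cells are known to make. It had 2318 UMIs in 14.9% of glaucoma cells and 1649 UMIs in 15.3% of normal cells. Non-myelinating Schwann-like cells, which counted 8 of 9 markers of their set, among them SCN7A, CDH19 and S100B, held 43.7% and 50.8% of these UMIs. They had 1035 CPM [972, 1100] in the glaucoma library, in 538 of 874 cells, and 961 CPM [897, 1029] in the normal library, in 380 of 575 cells. The log2 ratio was 0.11 [-0.03, 0.24], an interval that excluded a change of 2-fold in either direction. The intervals of both levels overlapped. After thinning, 58.4% [53.4, 63.3] and 54.7% [49.8, 59.5] of the cells held it. The strict filter moved the ratio to -0.83 [-1.13, -0.53].

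Myelinating Schwann-like cells had far less BCHE than their non-myelinating neighbours, 56.9 CPM in glaucoma and 91.5 CPM in normal cells. Their thinned shares were 5.88% and 5.86%. Macrophage-like cells had 6.39 and 4.20 CPM, and meshwork-like cells were at that floor, with 3.93 and 2.86 CPM. The class with most CCK was thus at the floor for BCHE.

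Muscle-like cluster 3 was the next holder of BCHE, with 235 CPM [212, 260] in 163 of 264 glaucoma cells and 164 CPM [151, 177] in 317 of 634 normal cells. Its log2 ratio was 0.52 [0.34, 0.71], at median mitochondrial shares of 16.9% and 11.3%. Cluster 8, a muscle-like cluster led by RERGL, a gene of vascular smooth muscle, held little, as the map of levels shows. The muscle-like class had 144 and 124 CPM and a ratio of 0.21 [0.03, 0.38], which the strict filter turned to -1.73 [-2.33, -1.18]. Cluster 10 had 134 CPM in the glaucoma library and 52.2 CPM, from 8 UMIs, in the normal library, and cluster 11 had 93.3 and 103 CPM. Lymphatic-type endothelium-like cells had 37.3 CPM in 61 of 550 glaucoma cells.

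Some other cholinergic genes were found in the non-myelinating Schwann-like class. PRIMA1, which anchors cholinesterases in the membrane, had 364 and 465 CPM there, and SLC5A7, the choline transporter, 108 and 206 CPM. CHAT and SLC18A3, which make acetylcholine and load it into vesicles, had no UMI in any kept cell. ACHE, the other cholinesterase, was highest in cluster 10, with 77.4 CPM in glaucoma and 58.7 CPM in normal cells.

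The 7 genes and 9 classes with at least 50 cells in each library make 63 pairs, of which 13 had the 100 UMIs needed. A call of higher or lower needed a ratio past 2-fold with an interval that left out 0. Of the 13, 5 were higher in the glaucoma library, 2 were lower and 6 were between. In meshwork-like cells PCSK1N was higher, CBLN2 lower and CCK between, beside 9.53% of 7866 genes called. In the muscle-like class CCK and PCSK1N were higher, TAC1 lower and BCHE between, beside 6.89% of 6463 genes. For non-myelinating Schwann-like cells PCSK1N was higher and BCHE between, beside 8.30% of 3410 genes, and the stromal fibroblast-like class had PCSK1N higher and CCK and CRHBP between, beside 6.54% of 7310 genes. PCSK1N, the only gene of the 7 measured in pericyte-like cells, was between, beside 7.55% of 2609 genes. The genes were picked from these contrasts, so nothing is read from the counts.

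**Figure D5:**
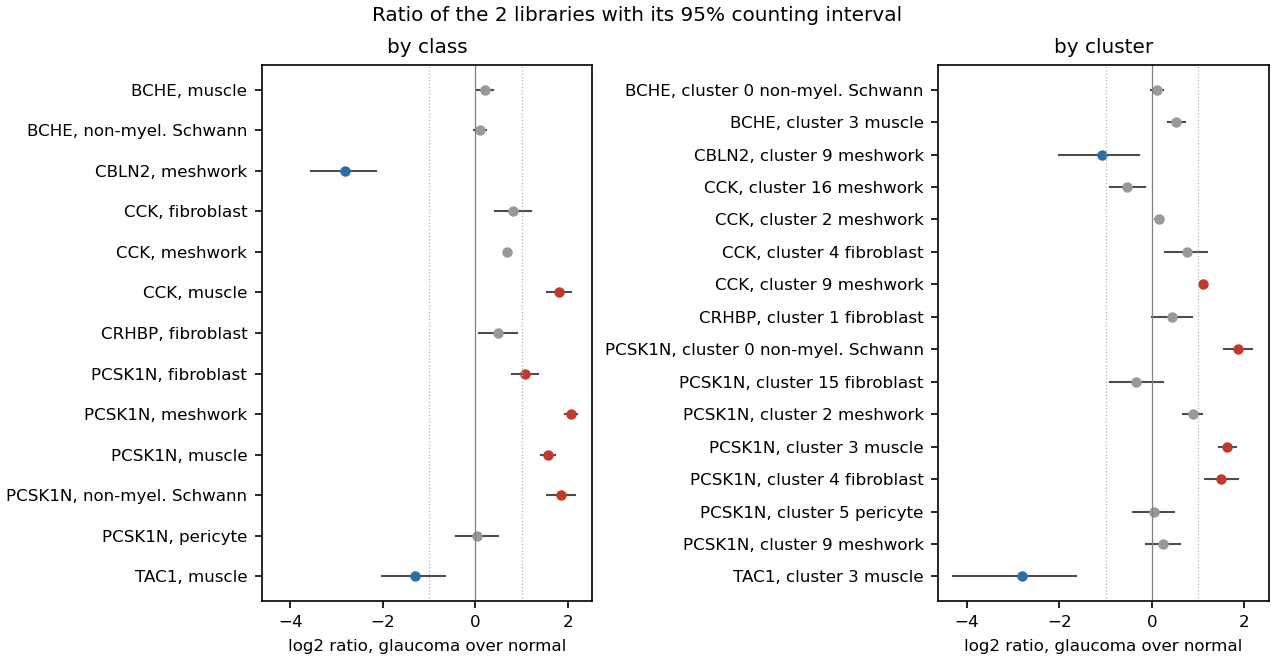
Log2 ratio of CPM, glaucoma over normal (horizontal axis), with its 95% counting interval, for the 13 measured pairs of gene and class (left) and for clusters with at least 50 cells in each library (right). Red marks a gene called higher and blue lower; dotted lines mark 2-fold. PCSK1N lies at 2.07 for the meshwork class but at 0.88 and 0.24 in its clusters 2 and 9.

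Values that moved with the libraries stand beside these ratios. Mitochondrial UMIs made up a median of 3.11% in glaucoma and 1.62% in normal meshwork-like cells, 8.85% and 7.18% in muscle-like cells and 3.36% and 3.87% in non-myelinating Schwann-like cells. In meshwork-like cells immediate early and dissociation stress genes were lower in the glaucoma library. Of 16 measured, 7 passed 2-fold downward and 1 upward, beside 9.53% of all genes called in either direction. Their median log2 ratio was -0.89 beside -0.06 for all genes tested. The list's median was -1.19 in stromal fibroblast-like cells, -0.57 in non-myelinating Schwann-like cells and -0.41 in muscle-like cells, beside -0.13, -0.02 and -0.12 for all genes. The part of depth, mitochondrial share or this list in the ratios of the 7 genes was not tested.

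Other genes of the granule were counted beside SCG5 and PCSK1N. Of 21 genes for granule processing and cargo, 10 were measured in meshwork-like cells: SCG2 was higher, PCSK2 lower and 8 were between, beside 9.53% of all genes called, and their median ratio was -0.11 beside -0.06 for all genes. SCG2, a granin carried in dense granules, was higher, with 82.7 and 35.2 CPM and a ratio of 1.23 [1.01, 1.45]. With each cluster weighted the same in both libraries it was 0.77 [0.50, 1.05], under 2-fold, and in cluster 16, where SCG2 was highest, it was 0.21 [-0.20, 0.62]. PCSK2, the convertase that SCG5 serves, was lower, with 8.72 and 20.5 CPM and a ratio of -1.23 [-1.67, -0.81], or -1.01 [-1.58, -0.43] with equal weights. CPE, which trims the cut peptides, had 108 and 57.3 CPM and a ratio of 0.92 [0.74, 1.09], and in stromal fibroblast-like cells it was called higher, with 115 and 48.2 CPM. PCSK1, the convertase that proSAAS inhibits, had 9 UMIs in all kept cells, and CHGA, a granin of neuroendocrine cells, had 6.

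In muscle-like cells 8 of the granule genes were measured, with 3 lower, none higher and a median of -0.48, beside 6.89% of all genes called and a median of -0.12. CHGB, another granin, had 13.1 and 49.6 CPM, a ratio of -1.92 [-2.44, -1.45]. PAM, which amidates peptides, had 191 and 419 CPM, and SNAP25, which drives vesicle fusion, 52.9 and 127 CPM. With equal cluster weights the ratio was -1.56 [-2.05, -1.07] for CHGB, -0.96 [-1.10, -0.82] for PAM and -0.89 [-1.14, -0.64] for SNAP25, so 1 of the 3 was still past 2-fold. Cluster 3, the holder of TAC1 in the normal library, was the highest cluster of CHGB, with 19.5 CPM in glaucoma and 66.9 CPM in normal cells. SCG3, a further granule protein, was highest in non-myelinating Schwann-like cells, with 163 and 116 CPM.

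Of 22 other neuropeptide genes named in the files, 5 were measured in meshwork-like cells, with 2 lower, none higher, and a median of -0.94, beside 9.53% of all genes called and a median of -0.06. GAL, the precursor of galanin, had 5.65 and 23.3 CPM, a ratio of -2.05 [-2.55, -1.56]. TRH, the precursor of thyrotropin-releasing hormone, had 47.4 and 95.6 CPM, a ratio of -1.01 [-1.20, -0.83]. With equal cluster weights GAL was at -1.32 [-1.87, -0.77] and TRH at -0.31 [-0.56, -0.06], so only GAL of these was past 2-fold. In stromal fibroblast-like cells 7 were measured, with NPY and NTS higher and CALCB and GAL lower, beside 6.54% of all genes called. PENK, an opioid precursor, was the 1 measured in muscle-like cells, with 30.3 and 8.82 CPM and a ratio of 1.78 [1.26, 2.32]. CCK was therefore not the only peptide precursor in meshwork-like cells, and the precursors differed in direction.

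Of the peptide receptors 1 was measured in meshwork-like cells, CALCRL, with 10.3 and 16.1 CPM. The 3 measured genes of peptide degradation there (CTSH, ECE1 and NLN) were all between. Among 4 cholinergic genes measured, CHRM1, a muscarinic receptor, was lower, with 11.4 and 33.0 CPM and a ratio of -1.53 [-1.89, -1.17] that was -0.63 [-1.08, -0.18] with equal cluster weights, and 3 were between. In non-myelinating Schwann-like cells C1QL1, a secreted relative of the cerebellins, was lower, with 23.5 and 91.9 CPM.

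Neuron-like cells were looked for among the clusters. No cluster was named as neuron or neuroendocrine. A cluster is made of captured cells, so nerve fibres as a source of these transcripts were not tested. The most neuron markers that counted in a cluster were 3 of 13, in meshwork-like cluster 9, and the most neuroendocrine markers 1 of 7, in cluster 3. PRPH, a filament of peripheral neurons, SLC17A6, a glutamate transporter, INSM1 and SLC18A1 had no UMI in the kept cells. SYT1, a synaptic vesicle protein, was highest in non-myelinating Schwann-like cells, at 1267 CPM over both libraries, and SNAP25 in muscle-like cluster 3, at 146 CPM.

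Genes held together in the same cell were counted after thinning to 1000 UMIs. In cluster 2 of the glaucoma library CCK and PCSK1N were found together in 120 of 968 cells, and the product of their shares gives 116. Cluster 10 had 90 such cells of 589, where the product gives 88.7. PCSK1N and BCHE were together in 56 of 397 glaucoma non-myelinating Schwann-like cells, where the product gives 51.4. Within these clusters, then, each pair met about as often as its shares alone give.

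The genes most like each member were found by Pearson's correlation of log2(CPM + 10) over the 26 clusters, among 7587 genes with at least 500 UMIs. The clusters share libraries and were made from many of these genes, so the values are a description. CCK was closest to CXCL14 and CHI3L1 (r = 0.88 each) and ARSI, CYTL1 and CCDC3 (0.87 each). TAC1 was closest to CRHBP (0.88), then NCDN (0.76), LRATD2, MAPK10 and LRRCC1 (0.69 each), and CRHBP to TAC1, PTGER2 (0.78), NCDN and LRRCC1 (0.74 each) and SLC26A7 (0.72). Both lists peaked mostly in cluster 24.

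SCG5 was closest to ATRNL1 (0.84), KCNIP4 (0.81), FHAD1 (0.79), COL4A3 (0.78) and SOSTDC1 (0.77), which peaked in clusters 10 and 11. PCSK1N was closest to PSAT1 (0.76), SLC16A1 (0.75), SPCS1 and C14H11orf1 (0.73 each) and CADM2 (0.70). SPCS1, a subunit of the signal peptidase that trims secreted proteins, peaked in the B or plasma-like cluster. CBLN2 had weaker likenesses, with MYL2 (0.66), CNMD (0.63), ART5 (0.62), SPR (0.61) and SLC16A9 (0.59). BCHE was closest to CNTN1 (0.81), BRSK1 and KCNIP3 (0.77 each), CXXC5 and CADM2 (0.76 each), and the first 4 peaked in non-myelinating Schwann-like cells.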

How the data were processed

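The deposited values are counts: UMIs per feature and barcode in 1 matrix per library, as whole numbers that the authors did not normalize. The submitters' processing notes list Cell Ranger 4.0 and Seurat 3.0, whereas the matrix headers name Cell Ranger 6.0.0, and the genome build is not given in the sources used here. The labels' protocols give a droplet 3-prime kit with digestion for 20 minutes at 37 °C, a 70 µm filter and 12 cycles of cDNA amplification. Of the 24037 features, 15570 have a symbol in the files and 873 took one from the reference table of gene names. No barcode has under 500 UMIs.

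Kept cells have at least 500 genes and under 20% mitochondrial UMIs (13 genes) and were not called doublets by Scrublet, run on each library at an expected 0.8% per 1000 cells. It called 296 glaucoma cells (3.43%) and 45 normal cells (0.829%). The tools were scanpy 1.11.5, igraph 0.11.9, scipy 1.17.1 and numpy 2.4.6 under Python 3.11.15, with seed 1. Cells of both libraries were clustered jointly, with no integration step, on 2000 variable genes, 30 principal components, 15 neighbours and Leiden resolution 1. Each cluster was named for the set, of 21, with most markers (the first listed in a tie), if at least 3 were 2-fold above the median cluster and in at least 10% of cells. It stayed unnamed where its 10 leading genes went against that class. The lymphatic-type class was allowed over the vascular one, which shares genes of all endothelium; this exception was made after the clusters had been seen.

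UMIs were summed over the cells of a class and library as CPM with exact Poisson intervals, and shares have exact Clopper-Pearson intervals. Ratios have exact conditional binomial intervals. A count of 0 allows 3 counts. Ratios were called only for classes with at least 50 cells in each library and genes with at least 100 UMIs; a ratio printed for fewer UMIs has its interval and no call. The gene lists, the members and the rule for named genes (every member, the 5 genes most like it, and list genes called or measured) were chosen with earlier results of these data known. The ratio script was tested on simulated data. A single gene of these lists is not reported here.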

Additional observations from a re-analysis of the deposited data

Results flagged for a closer look

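The barcodes that the filters removed, 2287 glaucoma and 1643 normal barcodes, are in no comparison above, and 3 of the 7 genes had a higher CPM there in the glaucoma library with an interval of the log2 ratio that left out 0. CCK had 87.6 CPM from 767 UMIs and 38.9 CPM from 130 UMIs, a log2 ratio of 1.17 [0.90, 1.45]. PCSK1N had 208 CPM from 1817 UMIs and 41.8 CPM from 140 UMIs, a ratio of 2.31 [2.06, 2.57]. BCHE had 164 CPM from 1436 UMIs and 115 CPM from 385 UMIs, a ratio of 0.51 [0.35, 0.68]. The 1436 removed BCHE UMIs compare with 3754 in the whole glaucoma matrix. CBLN2 went the other way, with 2.97 CPM from 26 UMIs and 10.8 CPM from 36 UMIs, a ratio of -1.86 [-2.64, -1.09]. CRHBP had 2.40 CPM from 21 UMIs and 1.49 CPM from 5 UMIs, with a ratio of 0.68 [-0.76, 2.45]. The share of all genes that were higher or lower among the removed barcodes is not given here. The control here is the normal library, and the mix of cells among the removed barcodes was not tested.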

How the results depend on the processing

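The 13 ratios were computed with 136 values in all under other settings, beside leaving out the top barcode: 89 values moved by less than the counting interval, 46 moved beyond it and 1 value of a called ratio turned its direction, CCK in muscle-like cells, -1.03 with the same weight for each cluster. Ratios that were not called changed sign too: under the strict filter BCHE was -1.73 in muscle-like and -0.83 in non-myelinating Schwann-like cells, and PCSK1N in pericyte-like cells went down to -0.20 with cells thinned. For 9 of the 13 the sign was the same under every setting run. The count of genes called in meshwork-like cells, 750, of 7866 tested, became 394 of 6183 with every deposited barcode, 239 of 2809 with cells thinned to 1000 UMIs and 1662 of 15754 with no UMI minimum; the cause of the first was not tested, and the others test fewer or more genes by construction. All 7 members have a highest class, and it was the same for 4 under the strict filter and 3 with the libraries clustered separately; the cause was not tested. CCK in muscle-like cells was 5.02 with the libraries clustered separately, and PCSK1N in meshwork-like cells ranged from 0.53 to 2.47. Leaving the 7 genes out of clustering, adding clusters 10 and 11 to the meshwork-like class, leaving out cluster 21, weighting clusters equally for the list genes and leaving out shared barcodes were chosen after seeing the data; the last of these moved no ratio beyond its interval. No paired analysis was possible because each group has 1 library, and for the same reason no replicate could be left out. Sparse genes limit the depth: SCG5 passed the UMI minimum in no class.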
